A study of Homo sapiens with 7 samples.

Results

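The genes described here are 38 transcription factor genes, 19 of the SOX family and 19 of the basic helix-loop-helix (bHLH) family, in Daoy cells, an established human medulloblastoma line. They were chosen by name, and a row of the deposited table was taken for a gene when its RefSeq accession maps to that symbol. Of the 38 genes, 37 had a row, 38 rows in all because SOX30 had 2, out of 24000 rows and 17217 named genes. TWIST2 had no row and was not analysed here. The cells were labelled wild type, with no treatment named, and grew in a modified MEM with fetal bovine serum, penicillin and streptomycin. RNA was hybridised to 7 single-colour Cy3 arrays, 4 from biological replicate 2 (arrays 1 to 4) and 3 from biological replicate 1 (arrays 1, 2 and 4), and each biological replicate had a multiplex slide of its own. Array 3 of replicate 1 was not analysed here. The design has 1 state of 1 line, so it gives which of these genes were detected and how far the 2 biological replicates differed, and culture and slide cannot be told apart in that difference. What separates the arrays of 1 biological replicate is not given in the labels. A level does not count them as independent samples and carries the SD over the replicate means (n = 2). The limma fits did take each array as a sample, so a p-value measures the spread between arrays only.

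SOX proteins bind DNA through an HMG box and fall into groups by its sequence. Group B1 maintains neural progenitors, group B2 holds repressors that oppose it, group C acts in differentiating neurons and in many tumours, group D works beside group E in cartilage and glia, and group F serves blood vessels. Neural bHLH proteins bind a DNA element called the E-box as dimers with the widely expressed E proteins TCF3, TCF4 and TCF12. Proneural members start neuronal differentiation, OLIG1 and OLIG2 specify oligodendrocytes, TWIST proteins act in mesenchymal cells, and ID proteins, which lack the DNA-binding part, hold E proteins in inactive pairs. Medulloblastoma arises in the cerebellum, where ATOH1 marks the precursors of granule neurons.

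For orientation, the sequence of the 250 bases before the RefSeq transcription start (build GRCh38.p14, 5′ to 3′ on the gene's strand, with capitals marking each E-box) is shown for 3 members that were detected, differed between the replicates and had 1 promoter window each. SOX4 and SOX12 are of group C and differed in opposite directions. SOX13, of group D, differed in the same direction as SOX12.
SOX4 promoter, chr6:21593501-21593750, plus strand: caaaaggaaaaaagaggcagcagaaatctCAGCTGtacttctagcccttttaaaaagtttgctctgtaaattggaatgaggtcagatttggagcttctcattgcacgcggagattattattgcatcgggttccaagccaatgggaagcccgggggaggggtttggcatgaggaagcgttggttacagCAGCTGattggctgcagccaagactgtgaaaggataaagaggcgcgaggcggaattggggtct
SOX12 promoter, chr20:325302-325551, plus strand: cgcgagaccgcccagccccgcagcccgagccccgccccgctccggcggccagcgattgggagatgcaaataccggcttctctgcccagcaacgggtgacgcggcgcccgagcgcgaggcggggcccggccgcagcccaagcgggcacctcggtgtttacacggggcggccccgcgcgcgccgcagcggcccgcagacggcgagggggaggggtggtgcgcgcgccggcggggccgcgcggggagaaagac
SOX13 promoter, chr1:204072865-204073114, plus strand: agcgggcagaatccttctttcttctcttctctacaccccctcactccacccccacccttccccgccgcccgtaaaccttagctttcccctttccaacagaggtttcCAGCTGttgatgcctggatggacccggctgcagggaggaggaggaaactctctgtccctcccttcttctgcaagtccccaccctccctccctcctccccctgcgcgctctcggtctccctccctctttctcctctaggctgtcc

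The windows differ in base composition. SOX12 had 42 CpG dinucleotides and 79.2% G or C, SOX13 had 8 CpG and 60.8%, and SOX4 had 8 CpG and 48.8%, against a median of 11 CpG and 58% over all 35097 promoter windows of that table. The E-box was searched as CANNTG, which reads the same on both strands, and overlapping matches were counted. It occurred 2 times in SOX4 (first bases 221 and 63 before the start) and 1 time in SOX13 (144 before it), each as CAGCTG, while SOX12 held none. An E-box is a frequent chance word, present in 61.8% of all windows. A SOX core, searched as AACAAT or ACAAAG on both strands, was in 20.9% of all windows and in none of these 3. Of the members, 24 had a window in the table, and 25 of their 43 windows held an E-box and 19 a SOX core. TCF4 had 10 of these windows, TCF12 5 and SOX6 5. Windows of 1 gene are not separate members, so these counts are not set against the shares of all windows. A match is a description of the letters and not a binding site.

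Few of these genes were detected in Daoy cells. All 3 genes of SOX group C and all 3 E proteins were detected. So were TWIST1 and 1 gene each of the SOX groups B1, D, E and G. The values are intensities on the log2 scale, and each array had a median of 8.15. A gene counted as above background at a level over 7.54, a limit that 95% of 364 olfactory receptor genes, which serve the nose and stand in for silent genes, did not pass. Of the 37 measured members, 11 were above background, against 60.6% of all named genes. The median level of the members was 6.56, against 8.41 over all named genes. Within the families, 7 of 19 SOX genes and 4 of 18 measured bHLH genes were above background. Intensity depends on how well the probes of a row bind, so levels of different genes are not set against each other here, and an intensity at background does not show that a transcript is absent.

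**Figure D1:**
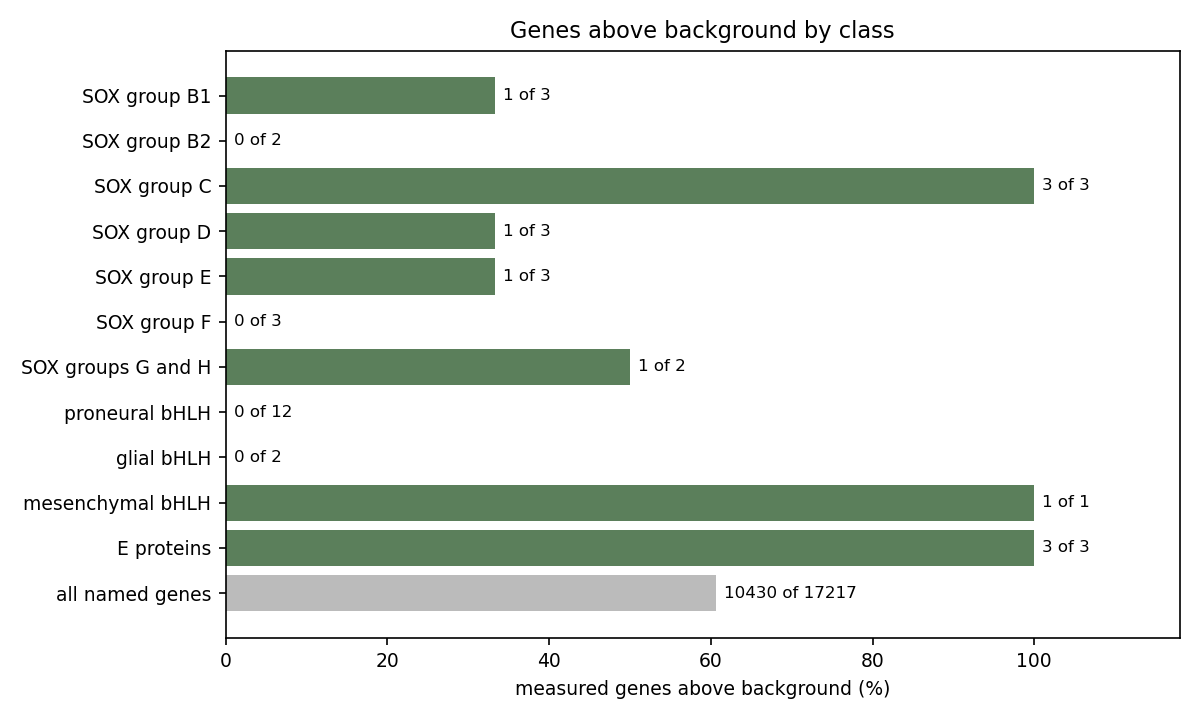
Percent of the measured genes of each class whose level was above background, with the number above background of the number measured beside each bar. SOX group C and the E proteins had 3 of 3 genes above background and proneural bHLH genes 0 of 12, while all named genes stood at 10430 of 17217.

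No member had a level between 7.33 and 7.77, the nearest levels on each side of the threshold. Just above it stood the E protein TCF12 at 7.77 ± 0.02 (SD, n = 2) and SOX2, the progenitor factor of group B1, at 7.94 ± 0.17. Just below it stood SOX10, a factor of neural crest and myelinating glia, at 7.33 ± 0.13 and SOX5 of group D at 7.03 ± 0.03. Each replicate also had a background of its own, 7.24 in replicate 2 and 7.79 in replicate 1. By these, 13 members were above background in replicate 2, against 64.0% of named genes, and 10 in replicate 1, against 57.4%. SOX10 exceeded the background of replicate 2 with a mean of 7.42 and stayed below that of replicate 1 with a mean of 7.24. TCF12 was above background in replicate 2 at 7.75 and marginally below it in replicate 1 at 7.78.

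Group C was the SOX group in which all 3 genes were above background and all 3 differed between the replicates. SOX11, which drives neuronal gene programmes, had 10.59, 10.11, 10.38 and 10.54 on arrays 1 to 4 of replicate 2, against 9.70, 9.00 and 9.72 on arrays 1, 2 and 4 of replicate 1. The values were separate between the replicates, and array 2 was the lowest in both. SOX11 rose by 0.93 ± 0.19 (SE), or 1.91-fold, in replicate 2 (limma, adjusted p = 0.00333).

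SOX4, which acts with SOX11 in differentiating neurons, had 10.65, 10.42, 10.66 and 10.84 in replicate 2, against 10.28, 9.97 and 10.41 in replicate 1. Its replicate 2 arrays lay above those of replicate 1, but array 2 of replicate 2 and array 4 of replicate 1 nearly met. SOX4 rose by 0.42 ± 0.14 (SE; limma, adjusted p = 0.029). This call was lost without any 1 of 5 arrays, namely array 1, 3 or 4 of replicate 2 or array 1 or 2 of replicate 1 (limma, adjusted p = 0.0578 to 0.0962).

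SOX12, the third gene of the group, moved the other way. It had 8.07, 8.44, 7.96 and 7.44 in replicate 2, against 8.71, 8.79 and 8.50 in replicate 1, so that array 4 of replicate 2 was the lowest and the replicates did not overlap. SOX12 fell by 0.69 ± 0.21 (SE) in replicate 2 (limma, adjusted p = 0.0212). Without array 1 or array 2 of replicate 1 the call was lost (limma, adjusted p = 0.0663 and 0.0665).

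**Figure D2:**
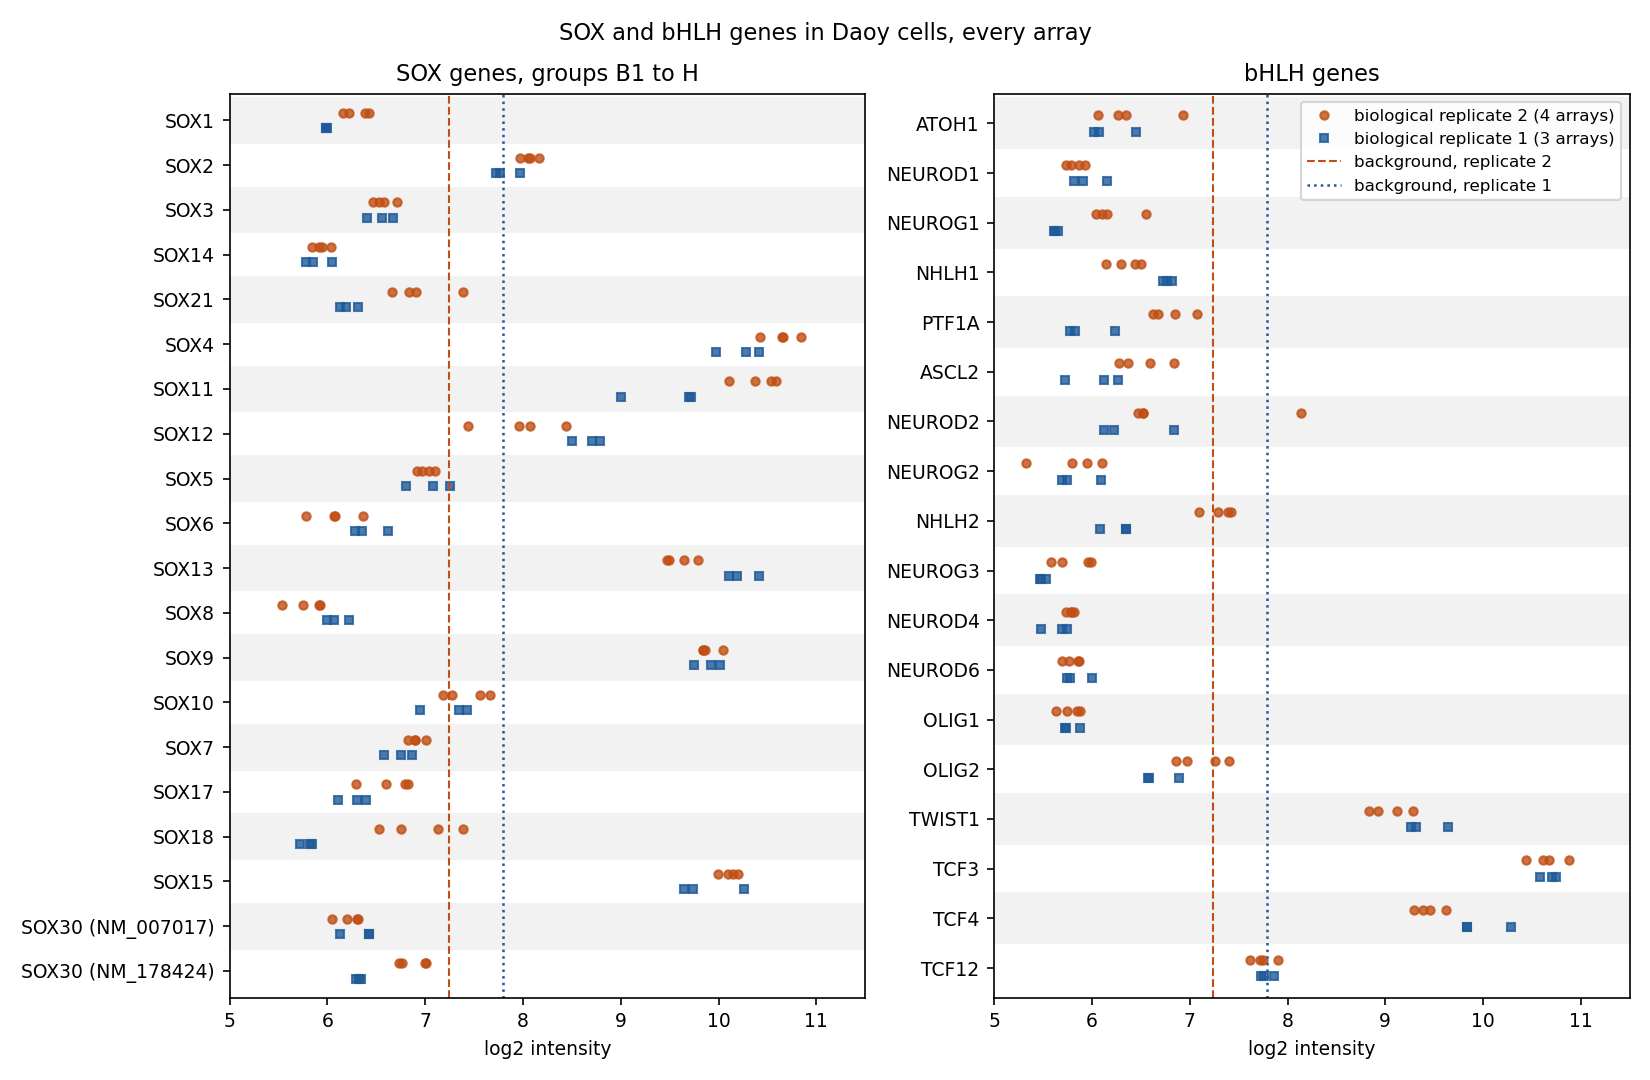
Log2 intensity (horizontal axis) of every SOX row, left, and bHLH row, right, with a point for each of the 4 arrays of biological replicate 2 (circles) and the 3 arrays of biological replicate 1 (squares); vertical lines mark the background of each replicate, 7.24 in replicate 2 and 7.79 in replicate 1. SOX4, SOX9, SOX11, SOX13 and SOX15 and the E proteins TCF3 and TCF4 lie to the right of both lines on all 7 arrays, while the proneural and glial genes lie to the left of the line of their own replicate on all arrays, except in replicate 2 on 3 arrays of NHLH2, 2 of OLIG2 and 1 of NEUROD2.

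Groups D and E were each represented by 1 detected gene. SOX13 of group D, known from T cells and the developing nervous system, had 9.79, 9.65, 9.48 and 9.50 in replicate 2, against 10.41, 10.19 and 10.11 in replicate 1. The replicates did not overlap. SOX13 fell by 0.64 ± 0.12 (SE), or 1.55-fold (limma, adjusted p = 0.00177), a call kept in all 10 other settings run on its row. SOX5 at 7.03 ± 0.03 and SOX6 at 6.24 ± 0.24, the partners of SOX9 in cartilage, were below background.

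SOX9 of group E, a factor of cartilage, glia and neural stem cells, was detected at nearly the same level in both replicates. It had 9.86, 10.05, 9.84 and 9.85 in replicate 2, against 10.02, 9.92 and 9.75 in replicate 1, with overlapping arrays. Its difference was 0.00 with a 95% interval of -0.23 to 0.23 (limma, adjusted p = 0.998). The other group E genes, SOX8 (5.94 ± 0.22) and SOX10, were below background.

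SOX2 was the group B1 gene above background. It had 8.16, 8.05, 8.07 and 7.97 in replicate 2, against 7.97, 7.76 and 7.72 in replicate 1, a difference of 0.25 (95% interval 0.02 to 0.47; limma, adjusted p = 0.0649). With the array number as a replicate block it passed the threshold (difference 0.25, adjusted p = 0.0498), as it did without array 1 of replicate 1 (0.32, adjusted p = 0.036). The other B1 genes SOX1 (6.14 ± 0.22) and SOX3 (6.56 ± 0.02) and the B2 repressors SOX14 (5.91 ± 0.03) and SOX21 (6.58 ± 0.52) were below background.

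SOX15, the only human gene of group G, had 9.99, 10.20, 10.10 and 10.15 in replicate 2, against 9.74, 10.26 and 9.64 in replicate 1. The arrays overlapped through array 2 of replicate 1, and the difference of 0.23 had a 95% interval of -0.11 to 0.57 (limma, adjusted p = 0.231). Without that array SOX15 was 0.42 higher in replicate 2 (limma, adjusted p = 0.0104). The vessel factors of group F, SOX7 (6.82 ± 0.12), SOX17 (6.45 ± 0.25) and SOX18 (6.37 ± 0.82), were below background. SOX30, a gene of male germ cells, was too, with its rows at 6.27 and 6.60.

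All 3 E proteins, the common dimer partners of tissue-specific bHLH factors, were above background. TCF3 had 10.68, 10.88, 10.62 and 10.44 in replicate 2, against 10.71, 10.75 and 10.58 in replicate 1. The arrays overlapped, with a difference of -0.02 (95% interval -0.28 to 0.24; limma, adjusted p = 0.892). TCF4 had 9.30, 9.62, 9.39 and 9.46 in replicate 2, against 9.84, 10.29 and 9.83 in replicate 1. It was lower on every array of replicate 2, and fell by 0.54 ± 0.14 (SE; limma, adjusted p = 0.00925). TCF12 had 7.72, 7.75, 7.91 and 7.62 in replicate 2, against 7.76, 7.73 and 7.86 in replicate 1, with a difference of -0.04 (95% interval -0.26 to 0.19).

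TWIST1, a factor of mesenchymal cells and of epithelial-mesenchymal transition, was the remaining bHLH gene above background. It had 9.12, 9.29, 8.93 and 8.83 in replicate 2, against 9.31, 9.64 and 9.26 in replicate 1, with an overlap through array 2 of replicate 2. The difference was -0.36 (95% interval -0.68 to -0.05; limma, adjusted p = 0.0565). It passed with the array number as a replicate block (-0.33, adjusted p = 0.0241) and without array 2 of replicate 2 (-0.44, adjusted p = 0.0247).

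None of the 12 proneural genes and neither of the 2 glial genes was above background. Their levels ran from 5.65 for NEUROG3 to 6.78 for NHLH2 among the proneural genes, and were 5.78 ± 0.00 for OLIG1 and 6.90 ± 0.31 for OLIG2. ATOH1, the granule precursor factor, stood at 6.29 ± 0.15, with 6.35, 6.93, 6.27 and 6.06 in replicate 2 and 6.45, 6.07 and 6.03 in replicate 1. NEUROD1, which follows ATOH1 in the granule lineage, stood at 5.90 ± 0.09, and PTF1A, the factor of cerebellar inhibitory neurons and of the pancreas, at 6.38 ± 0.61.

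NHLH2, a bHLH gene of postmitotic neurons, exceeded the background of replicate 2 alone. It had 7.42, 7.09, 7.28 and 7.40 there, against 6.35, 6.08 and 6.35 in replicate 1. The row was called higher in replicate 2 (limma, adjusted p = 0.000117). Its replicate 2 mean of 7.30 lay only just above the background of 7.24, and replicate 1 lay below its own, so no fold is given.

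Counted over all members, calls between the replicates were no more frequent than elsewhere on the arrays. By limma with Benjamini-Hochberg adjustment over all 24000 rows at a threshold of 0.05, 15 of the 38 member rows passed, against 48.8% of all rows. Of the 38 rows, 10 passed and also differed by 0.5 or more, against 33.3% of all rows. Of the 38 rows, 11 were called higher in replicate 2, against 24.6% of all rows, and 4 were called lower, against 24.2%. In 17 of 38 member rows every array of 1 replicate lay above every array of the other, against 51.7% of all rows. The median difference was 0.16 over the member rows and -0.01 over all rows.

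The calls are given apart for detected and undetected members. Among the 11 rows above background, 5 were called, against 56.0% of all rows above background. Of the 11 rows, SOX4 and SOX11 were called higher (28.6% of all rows above background were). SOX12, SOX13 and TCF4 were called lower (27.5% were). Among the 27 rows at or below background, 10 were called, against 39.1% of all such rows. Of the 27 rows, 9 were called higher, against 19.2% of all such rows, and 1 was called lower, against 19.8%. The 9 rows were those of SOX1, SOX18, SOX21, SOX30, NHLH2, NEUROG1, PTF1A, ASCL2 and OLIG2, and the lower one was NHLH1. All but NHLH2 lay below background in replicate 2 and in replicate 1, and their sizes are not read. Whether the direction of the calls differs between detected and undetected rows was not tested.

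**Figure D3:**
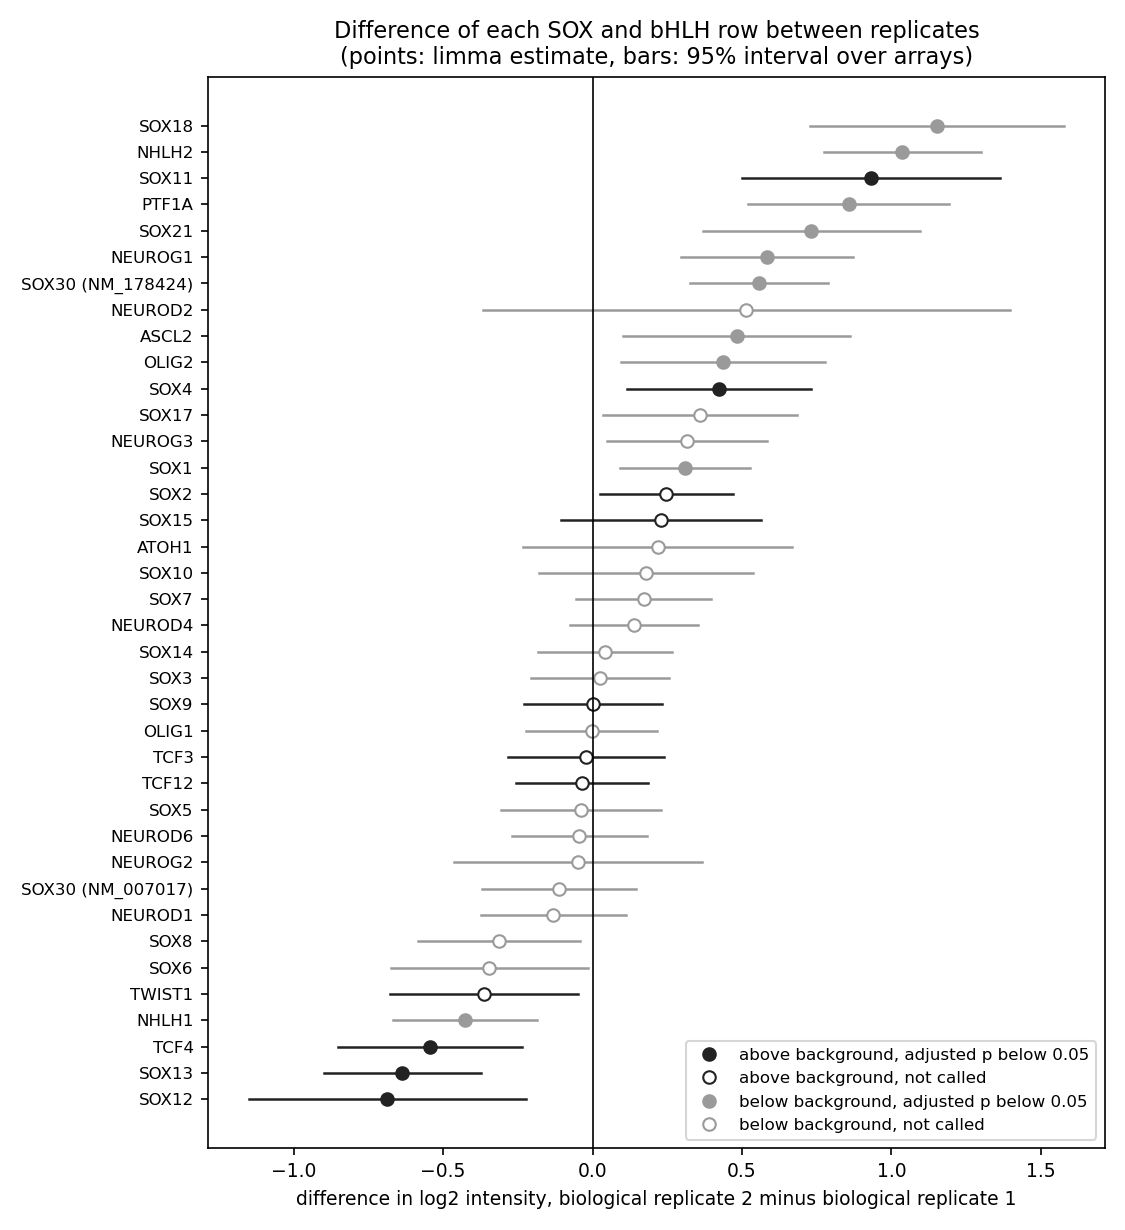
Difference in log2 intensity, biological replicate 2 minus biological replicate 1, of each of the 38 member rows, with bars for the 95% interval over arrays; black marks rows above background, grey rows below it, and filled points passed the threshold. The detected rows span -0.69 for SOX12 to 0.93 for SOX11, and most of the filled points to the right of 0 are grey.

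Related genes were read from lists, and their counts are set against the same shares over the whole table, namely 60.6% of named genes above background, 24.6% of rows higher and 24.2% of rows lower in replicate 2. The ID proteins, inhibitors of the E proteins, were detected for 3 of 4 genes, and ID1 and ID4 differed in opposite directions. ID1 had 11.27, 11.44, 11.34 and 10.93 in replicate 2, against 9.49, 9.60 and 9.04 in replicate 1, on the brighter of its 2 rows. It rose by 1.87 ± 0.16 (SE), or 3.66-fold (limma, adjusted p = 3.21e-05), and its other row rose by 1.53. ID4 had 7.85, 7.63, 7.61 and 7.61 in replicate 2, against 8.44, 8.54 and 8.44 in replicate 1, and fell by 0.80 (limma, adjusted p = 0.000173). ID2, at 9.35 ± 0.25, differed by -0.36 (95% interval -0.81 to 0.09), and ID3 was below background at 5.80 ± 0.17.

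The HES, HEY and BHLHE40/41 genes, bHLH repressors that act partly downstream of Notch, had 5 of 12 measured members above background (60.6% of all named genes). In replicate 2, 7 of their 12 rows were higher (24.6% of all rows) and 1 was lower (24.2%), and 4 of the 7 were above background. BHLHE40 (11.44 ± 0.28), HEY1 (9.41 ± 0.46) and HES1 (8.78 ± 0.48) rose by 0.39, 0.66 and 0.68 (limma, adjusted p = 0.00608, 0.0148 and 0.00214). HES4 had 8.89, 9.11, 8.59 and 8.52 in replicate 2, against 7.10, 7.29 and 6.95 in replicate 1, where it was below background.

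Genes of the POU and PAX families, whose proteins bind DNA beside SOX proteins, had 5 of 9 measured members above background, with 2 of 14 rows higher (24.6% of all rows) and 9 lower (24.2%). Of the 9, 5 were rows of PAX3 and 2 of POU5F1, so they are not 9 separate genes. POU3F3, a POU factor of neural progenitors, had 11.10, 11.29, 10.82 and 10.84 in replicate 2, against 10.42, 10.75 and 10.36 in replicate 1, and rose by 0.50 (limma, adjusted p = 0.0198). POU2F1, which is widely expressed, had 10.96, 10.97, 11.01 and 10.94 in replicate 2, against 11.78, 12.07 and 11.89 in replicate 1, and fell by 0.94 (limma, adjusted p = 6.61e-05). POU5F1, the pluripotency partner of SOX2, fell on both of its rows, with differences of -2.84 and -1.39 (limma, adjusted p = 1.11e-06 and 0.000339). That gene has near-identical copies elsewhere in the genome, and which copies its probes read was not examined, so these values are uncertain. The 5 rows of PAX3, a neural crest factor, were all lower in replicate 2, with differences of -1.66 to -0.56, and 1 of them was below background.

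**Figure D4:**
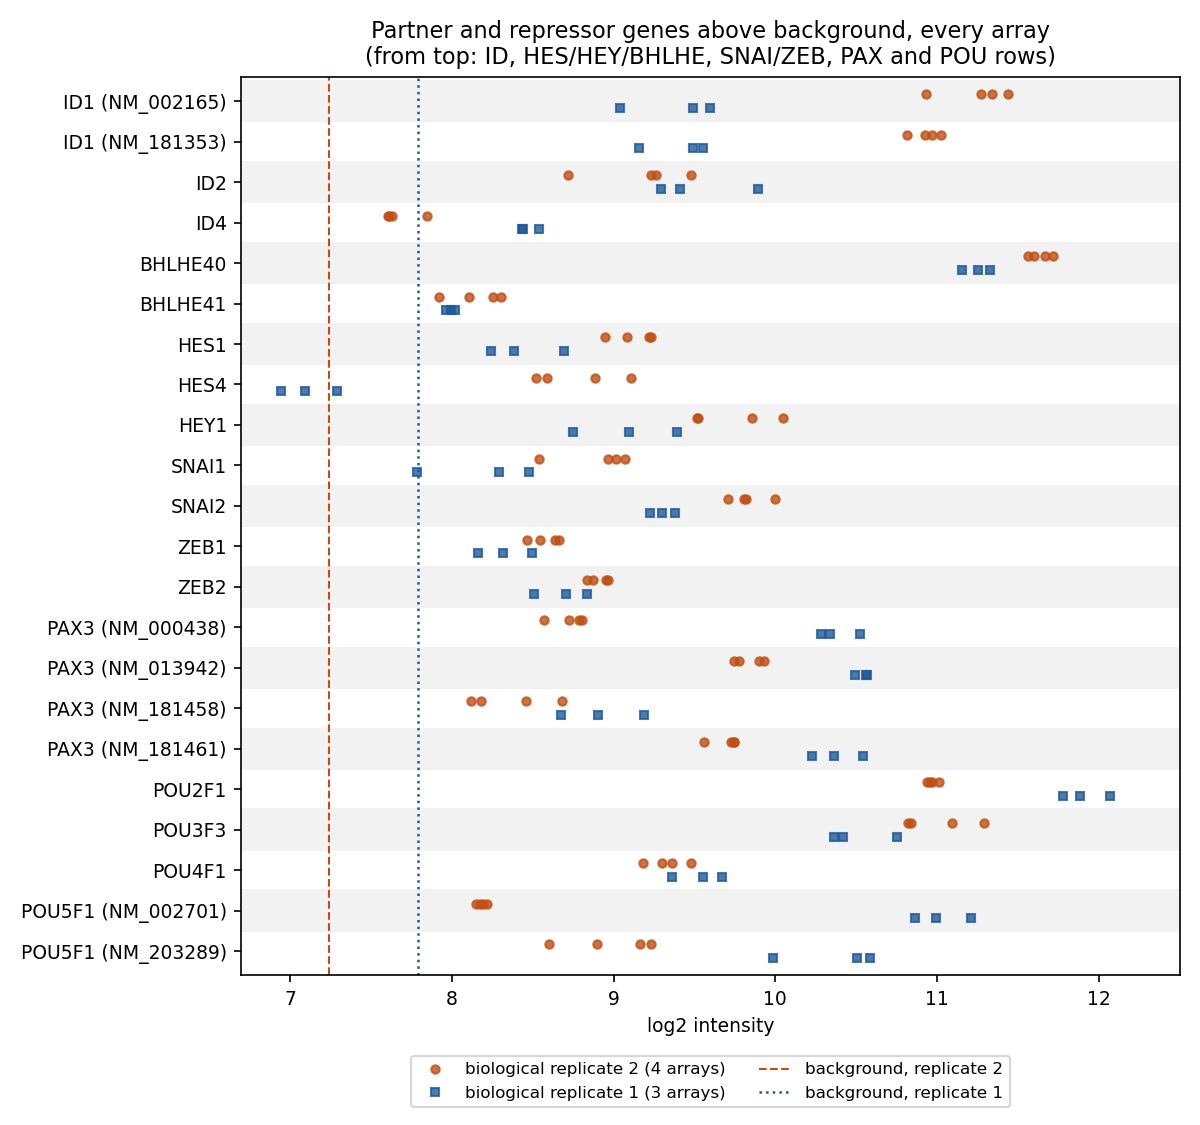
Log2 intensity (horizontal axis) of each row above background in the ID, HES/HEY/BHLHE, SNAI/ZEB and PAX/POU lists, with a point for each of the 4 arrays of biological replicate 2 (circles) and the 3 arrays of biological replicate 1 (squares) and vertical lines for the background of each replicate. The ID1 rows lie higher in replicate 2 and the PAX3, POU2F1 and POU5F1 rows lower, with an overlap of arrays in 1 PAX3 row.

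The zinc finger factors SNAI and ZEB, which work with TWIST1 in epithelial-mesenchymal transition, were above background for 4 of 5 genes. SNAI1 rose by 0.71 ± 0.18 (SE; limma, adjusted p = 0.0108) and SNAI2 by 0.53 ± 0.10 (SE; limma, adjusted p = 0.00202), and the differences of ZEB1 and ZEB2 were 0.25 and 0.23 (limma, adjusted p = 0.081 and 0.0971). Among 12 genes linked to TWIST1, 7 were above background (60.6% of all named genes), with 4 of 13 rows higher (24.6% of all rows) and 2 lower (24.2%). Fibronectin, FN1, was on 2 rows that differed in call, with differences of -0.02 and -0.79 (limma, adjusted p = 0.958 and 0.000281). The Polycomb gene BMI1 stood at 10.38 ± 0.23, with a difference of -0.33 (limma, adjusted p = 0.0871). The N-cadherin CDH2 stood at 12.08 ± 0.09 and the E-cadherin CDH1 at 5.54 ± 0.04, below background. The matrix protein POSTN had a replicate 2 mean of 9.36, against 7.66 in replicate 1, which was below background there.

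Other tissue-specific bHLH genes were rarely detected, in 3 of 25 measured, and 11 of their 26 rows were higher (24.6% of all rows) and 4 lower (24.2%). Of the 3 rows above background, 1 was higher (28.6% of all such rows) and 1 was lower (27.5%). MSC, a factor of muscle precursors and lymphocytes, stood at 10.28 ± 0.05, ATOH8 at 8.72 ± 0.69 and HAND2, a factor of heart and sympathetic neurons, at 8.25 ± 0.44. ATOH8 rose by 0.97 and HAND2 fell by 0.62 (limma, adjusted p = 5.15e-05 and 0.00135).

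Genes downstream of proneural factors had 5 of 20 measured members above background, 6 of 21 rows higher (24.6% of all rows) and 3 lower (24.2%). They included the tubulin TUBB3 at 10.62 ± 0.28, EBF1 at 9.18 ± 0.39 and the corepressor CBFA2T2 at 9.08 ± 0.82, which fell by 1.17 (limma, adjusted p = 0.000483). Both rows of the Notch ligand DLL3 were called higher in replicate 2 (limma, adjusted p = 0.000998 and 0.0182). Both were below background in replicate 1, so no size is given, and the level of the gene, 7.41, was below background. Targets of SOX9 and SOX10 had 6 of 20 above background, 4 of 26 rows higher (24.6% of all rows) and 10 lower (24.2%). Of the 8 rows above background, 1 was higher (28.6% of all such rows) and 5 were lower (27.5%). Of the 5, 2 were rows of PMP22, so they are not 5 separate genes. The cartilage collagen COL2A1 was at 10.91 ± 0.39 and fell by 0.55 (limma, adjusted p = 0.00428). HAPLN1, a link protein of cartilage matrix, was at 9.98 ± 0.01, and COL9A2 (8.26) and COL11A2 (8.41) were above background too. Other cartilage genes of the list were below it, namely ACAN (5.74), COL11A1 (5.74), MATN1 (6.02), MATN3 (6.35) and COL9A1 (6.40). The myelin protein gene PMP22 was above background on both rows, with differences of -0.50 and -0.63 (limma, adjusted p = 0.0115 and 0.00412), whereas the myelin genes MBP and GJB1 were below it. The collagen COL11A2 fell by 0.70 (limma, adjusted p = 0.00229), and 1 of the 2 rows of the endothelin receptor EDNRB had a mean of 8.30 in replicate 2, against 7.26 in replicate 1, which was below background.

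The label of the line was set against marker lists. Of 10 genes of the hedgehog subgroup and granule precursors, 4 were above background, against 60.6% of all named genes. They were PTCH1, SMO, GLI2 and SFRP1, while GLI1 (6.91), HHIP (6.61), MYCN (7.02), ZIC1 (5.87), BARHL1 (6.23) and ATOH1 were below background. Neuronal markers had 4 of 9, astrocyte markers 2 of 6, oligodendrocyte lineage markers 2 of 7 and mesenchymal markers 10 of 11 measured genes above background. Those above background included the neurofilament NEFL (11.65), the glutamate transporter SLC1A3 (9.25), the myelin enzyme CNP (10.92) and vimentin, VIM (15.02). In RNA from a whole culture, fewer cells of a type and less RNA per cell cannot be told apart.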

How the data were processed

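RNA of Daoy cells was read on 7 single-colour arrays. The deposited values are log2 intensities made by the authors with RMA, and limma is named beside it, per the submitters' processing notes, both without a version. Base 2 is the usual base of RMA and was assumed. The sources used here do not give a genome build, an annotation, detection calls or single probes. Sorted columns were equal within 0.002, as quantile normalization gives. Rows were named through RefSeq accessions (GRCh38.p14 table): 19125 matched 1 symbol and 4875 none.

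Rows of a gene were averaged for its level, the mean of the replicate means. Differences, replicate 2 minus replicate 1, were fitted row by row on all rows with limma 3.58.1 in R 4.3.3 (lmFit and eBayes, Benjamini-Hochberg, threshold 0.05). The step was tested on simulated data. The number of arrays limits the precision. Members and lists were chosen with earlier results of these data known. Per-array values are given for members above background, and for those past the threshold by at least 0.5 and above background in 1 replicate; those of ATOH1 were added after its values were seen. Of each other list, the 3 highest levels (used only to choose names, not to rank genes) and the largest called difference in each direction were to be named; genes named beyond this, among them CDH1, ID3, MBP and ZEB1, were chosen after their values were seen. The motifs and the promoters to print were also chosen after the values were seen. Whether members share probe sequence was not examined.

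Same-numbered arrays deviated together from their replicate means (Pearson's r across rows 0.211, 0.35 and 0.399 for arrays 1, 2 and 4). Of the pairs with different numbers, array 3 of replicate 2 with array 4 of replicate 1 had r = 0.203, and the rest were at most 0.009. Each same-numbered pair was over 0.1, the limit used for pairing, but so was that pair of arrays 3 and 4. The number entered as a block in an alternative fit only, and the main p-values come from fits without pairing. What the number stands for is not given in the labels. Alternatives were the array number as a block, a trended robust prior, rows above background, averaged rows, other backgrounds and each array left out. Promoter sequences are from RefSeq.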

Additional observations from a re-analysis of the deposited data

Results flagged for a closer look

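In 5 of 88 rows, 1 of the 4 arrays of replicate 2 lay far from the other 3, by Dixon's ratio of the gap to the range, a rule by which chance flags about 1 in 20 groups. NEUROD2, a proneural gene, had 8.13 on array 2 of replicate 2, against 6.48 to 6.52 on the other arrays of that replicate. That array alone lay above the background of replicate 2, and the replicate 2 mean of 6.91 was below it. SOX9 had 10.05 on array 2 of replicate 2, with the others at 9.84 to 9.86. ID4 had 7.85 on array 1, with the others at 7.61 to 7.63. A row of PMP22 had 10.86 on array 2, with the others at 10.49 to 10.54. CSPG4, a proteoglycan of oligodendrocyte precursors, had 10.60 on array 1, with the others at 10.34 to 10.38.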

How the results depend on the processing

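The number of member genes above background stayed at 11 with genes of other tissues as background, the brightest row per gene, the mean over the 7 arrays and each array left out (11 to 11). It was 8 where the background was the 99th percentile of the olfactory receptors, there SOX2, SOX12 and TCF12 fell below. Calls among member rows numbered 19 with the array number as a replicate block (paired), 17 with the trended robust prior, 15 with rows of a gene averaged, and 11 to 16 with 1 array left out. Over all rows these were 12919 with the block, 11959 with the trended prior and 9980 to 11084 with 1 array left out. With rows at or below background removed, 5 member rows and 7719 rows in all were called, since fewer rows were tested. For the 12 named rows, 107 of 119 refits stayed on the same side of the threshold. A call was lost in 7 (SOX4 and SOX12, given above) and gained in 5 (SOX2, TWIST1 and SOX15). The differences of TCF3, TCF12 and SOX9, not called in any setting, changed sign in some of the refits. No refit reversed a called direction. The block changed no call of a named row other than those of SOX2 and TWIST1. Without detection calls or single probes, signal over background could be judged only from olfactory receptor genes.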
